A study of Mus musculus with 16 samples.

Results

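The 10 genes described here are the repressors and outputs of the circadian clock that peak together in its Period phase: Per1, Per2, Per3, Cry2, Dbp, Tef, Hlf, Bhlhe40, Bhlhe41 and Usp2. They were taken by symbol from a table of 24421 genes in mouse colon, and each was found there on 1 row. RNA was sequenced from colon tissue of C57BL/6 mice aged 8 weeks, in 16 libraries that each held the pooled RNA of 3 mice. The mice were either NCoR1 DIEC (DIEC here), in which the nuclear receptor corepressor NCoR1 is deleted in intestinal epithelial cells, or NCoR1 F/F (F/F here), which the labels call wild type. Mice drank either 2.5% dextran sulfate sodium (DSS), which damages the epithelium of the large intestine, or water (naive), and the colon of DSS mice was taken on day 3. This gave 4 groups of 4 libraries: DIEC DSS, DIEC naive, F/F DSS and F/F naive. The sources used here name neither the Cre driver of the deletion nor the hour at which the mice were killed, so a change in a gene's level over the whole day and a shift in the time of its daily peak cannot be told apart.

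In the mammalian clock, CLOCK (or its relative NPAS2) and BMAL1, the product of Arntl, bind E-boxes in DNA and switch on the Period and Cryptochrome genes, whose proteins return to the nucleus and repress that same activity. DBP, TEF and HLF are transcription activators of the PAR bZIP family that bind D-boxes and carry the rhythm to further genes, and BHLHE40 and BHLHE41 (also called DEC1 and DEC2) are repressors that bind E-boxes. USP2 is a ubiquitin protease whose transcript is rhythmic in many mouse tissues. Period genes also respond to signals from outside the loop, among them glucocorticoids and cAMP. In a second loop, the receptors REV-ERBα and REV-ERBβ (Nr1d1 and Nr1d2) repress Arntl and Npas2 with the aid of NCoR1 and its partner histone deacetylase 3.

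Short windows around gene starts were searched for sequences that such factors can bind, and sites outside these windows were not searched. RefSeq promoter windows on GRCm38.p6, each of 250 bases before and 50 after a gene's start, were at hand for 8 of the 10 members, with 10 windows in all, and those of Per2 and Bhlhe40 were not analysed here. Both strands were searched for the E-box CACGTG, the variant CACGTT, the D-box TTATGTAA, its variant TTACGTAA and the cAMP response element TGACGTCA. The E-box stood in windows of Per1, Tef and Bhlhe41, and 7.15% of 32851 mouse promoters hold it. The D-box stood 2 times in the window of Per3, and 0.938% of promoters hold it. The variant CACGTT lay on the other strand of the Cry2 window (4.685% of promoters) and the cAMP response element in the Hlf window (1.79%), whereas the windows of Dbp and Usp2 and the further window of Per1 held none of these letters. A match is a description of the window and not a bound site. The next 4 windows are shown because they carry an E-box or a D-box in members that rose with DSS in F/F colon (Per1, Tef, Per3) and in the member that was not called with DSS in either genotype (Bhlhe41), with the matched letters in capitals. They are written 5′ to 3′ on the gene's own strand: Per1 at chr11:69098699-69098998 (plus), Per3 at chr4:151044616-151044915 (minus), Tef at chr15:81811164-81811463 (plus) and Bhlhe41 at chr6:145865371-145865670 (minus). The match begins 166 bases before the start in Per1, 205 and 158 before it in Per3, 138 in Tef and 153 in Bhlhe41.
Per1: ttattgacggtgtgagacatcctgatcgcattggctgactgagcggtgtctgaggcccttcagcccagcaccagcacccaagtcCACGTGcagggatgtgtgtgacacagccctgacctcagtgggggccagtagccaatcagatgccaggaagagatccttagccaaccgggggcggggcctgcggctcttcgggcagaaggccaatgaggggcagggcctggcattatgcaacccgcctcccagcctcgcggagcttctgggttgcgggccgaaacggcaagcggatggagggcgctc
Per3: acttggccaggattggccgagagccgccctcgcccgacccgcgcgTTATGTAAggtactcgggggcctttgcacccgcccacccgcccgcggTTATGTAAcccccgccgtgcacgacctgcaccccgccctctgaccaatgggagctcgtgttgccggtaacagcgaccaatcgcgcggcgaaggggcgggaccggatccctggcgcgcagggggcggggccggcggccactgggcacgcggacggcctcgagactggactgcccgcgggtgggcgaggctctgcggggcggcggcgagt
Tef: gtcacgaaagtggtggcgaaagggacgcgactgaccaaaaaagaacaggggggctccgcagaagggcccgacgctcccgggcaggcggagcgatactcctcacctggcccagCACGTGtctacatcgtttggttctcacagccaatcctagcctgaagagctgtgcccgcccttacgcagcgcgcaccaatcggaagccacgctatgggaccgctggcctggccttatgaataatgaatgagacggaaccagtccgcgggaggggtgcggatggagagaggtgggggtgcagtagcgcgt
Bhlhe41: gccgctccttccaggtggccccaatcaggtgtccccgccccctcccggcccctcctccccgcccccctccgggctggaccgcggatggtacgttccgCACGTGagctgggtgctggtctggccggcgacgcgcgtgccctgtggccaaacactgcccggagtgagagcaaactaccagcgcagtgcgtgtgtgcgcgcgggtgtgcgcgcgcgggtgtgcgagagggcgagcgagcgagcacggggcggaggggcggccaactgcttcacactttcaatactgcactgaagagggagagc

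Values are the authors' scaled reads: reads on a gene's exons divided by a single factor per library. Between 19957413 and 34733832 reads per library lay on genes, and each member rested on 102 to 12485 reads in every library. Counting error was below the SD of the log2 values in most sets of 4 libraries and reached it in 4 of 40, namely Cry2 in DIEC DSS, Tef in F/F DSS and Bhlhe41 in both DSS groups. Changes are log2 differences of value + 1 with their standard error, tested with limma across 18267 genes, and a gene was called at a Benjamini-Hochberg adjusted p under 0.05. Gene positions are those of the mm9 models in the table, from whose exons the reads were summed. All 10 members passed the filter on low values. As nothing says that the 4 pools of a group came from separate experiments, p-values measure only the spread between pools. Ncor1 itself ran from 1342.6 to 1663.3 in DIEC DSS, against 3689.2 to 4078.3 in F/F DSS, and from 1756.1 to 1978.5 in DIEC naive, against 3445.2 to 3730.4 in F/F naive, and the genotypes did not overlap. All 10 epithelial markers were above 0 in every library, with sums of 528826 to 597159 in DIEC DSS, 444037 to 516965 in DIEC naive, 538152 to 551582 in F/F DSS and 465117 to 522640 in F/F naive. Pancreatic acinar transcripts summed to 7724 to 11268 in DIEC DSS, 17261 to 527514 in DIEC naive, 10458 to 13835 in F/F DSS and 11292 to 109355 in F/F naive. In DSS colon these sums were mostly Cela1, with means of 9529 in DIEC DSS and 12082 in F/F DSS. In F/F DSS Pnlip and Cpa1 had means of 0, and Cela2a, Cel and Prss2 of 0.712, 0.885 and 0.933. The sum of F/F naive library 2, the lowest of its group, lay inside the F/F DSS range. Every F/F naive library was still above every F/F DSS library in Pnlip, Cela2a, Cpa1, Cel, Ctrb1, Prss2 and Clps.

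The 4 F/F naive libraries stood apart from each other in these genes, and this touches each comparison that uses them. F/F naive 2 was the lowest library of its group for 10 of 10 members, against 33.6% of all genes tested. F/F naive 1 was the highest for 6 members and F/F naive 4 for the other 4. The median SD of log2 values among members was 0.43 in F/F naive, against 0.20 in DIEC naive, 0.14 in DIEC DSS and 0.10 in F/F DSS, whereas over the 12139 genes with a mean of at least 100 it was 0.12 to 0.14 in all 4 groups. In the same libraries Arntl and Npas2, which peak in the opposite phase and were picked here after their values were seen, ran the other way: Arntl was at 605.3, 1152.9, 1030.2 and 859.8 and Npas2 at 315.6, 627.5, 637.2 and 480.6 in F/F naive 1 to 4. Ciart, a repressor in phase with the Period genes, was at 600.8, 165.8, 204.2 and 504.3. Clock did not follow either course, at 4398.6, 4523.7, 3974.4 and 4295.0, and of 12 other core clock genes 5 were lowest and 2 highest in F/F naive 2. The summed proliferation markers were 16147, 27476, 24259 and 16586 in F/F naive 1 to 4, higher in the libraries where the members were low, and their part in this pattern was not tested.

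**Figure D1:**
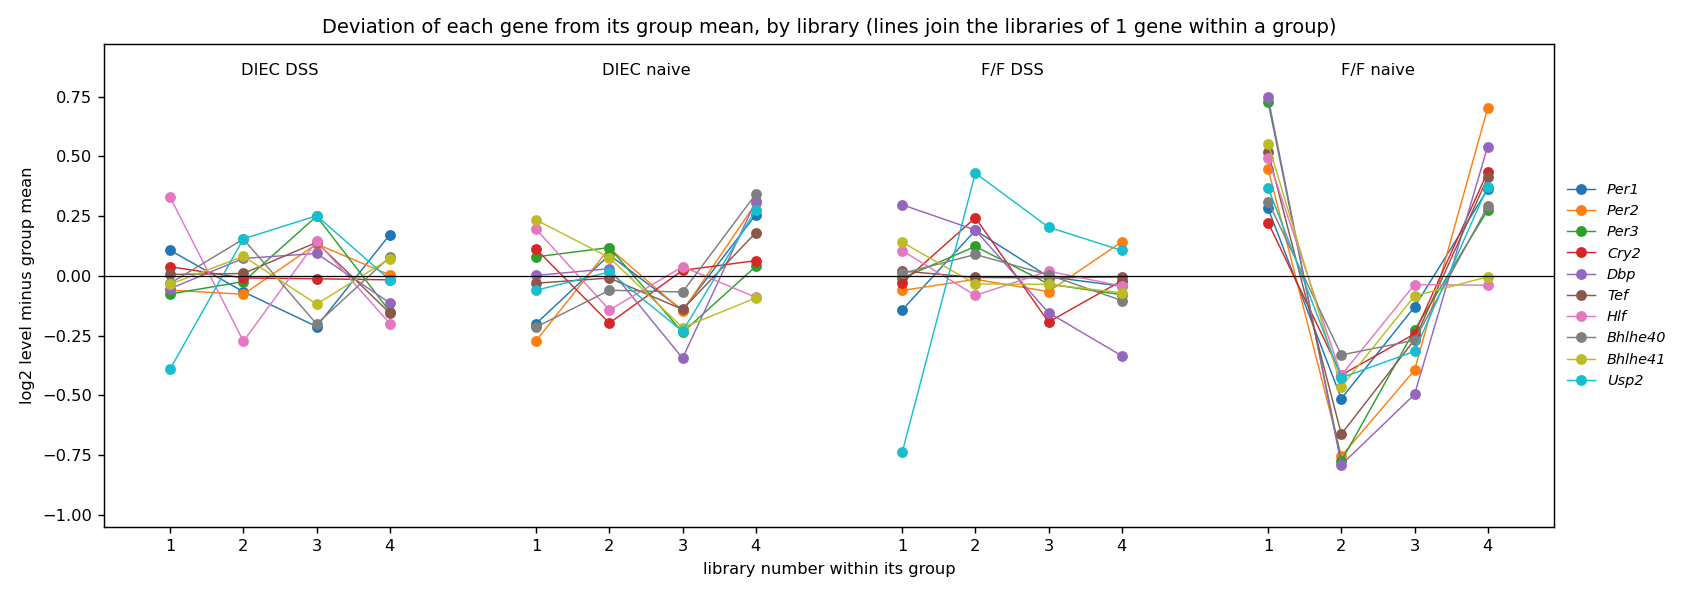
Log2 level of each of the 10 members minus its group mean (vertical axis), for libraries 1 to 4 of each group (horizontal axis), with a line per gene within each group. In F/F naive all 10 lines drop to their lowest point in library 2, and the spread in the other 3 groups is smaller for most genes.

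Per unit of exon length, the order of the members was nearly the same in the 4 groups. Bhlhe40 and Dbp were the most abundant, with 3176 ± 332.9 and 2720 ± 186.6 scaled reads per kb in DIEC DSS (SD, n = 4), and their library ranges overlapped in each of the 4 groups. Tef followed with 1368 ± 113.8 per kb in DIEC DSS. Per1, Per2, Per3, Cry2 and Usp2 formed a middle band of 432.2 to 760.0 per kb in DIEC DSS, 211.0 to 387.4 in DIEC naive, 596.6 to 927.1 in F/F DSS and 222.7 to 385.8 in F/F naive, in which most neighbours overlapped. Hlf, at 80.5 ± 16 per kb, and Bhlhe41, at 25.2 ± 1.65 per kb, were the lowest in DIEC DSS, and they held the last places, apart from each other and from the rest, in all 4 groups.

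With DSS the clock repressors and outputs stood higher in both genotypes. In DIEC colon 7 of 10 members rose and none fell, where 12.3% of all genes tested were called higher and 40.0% lower. In F/F colon 9 of 10 rose and none fell, against 16.3% called higher and 28.5% lower among all genes. The median log2 change of the members was 0.59 in DIEC colon, beside -0.24 over all genes, and 0.99 in F/F colon, beside -0.11 over all genes. DSS libraries lay above naive ones without overlap for 8 of 10 members in each genotype, as did 9.59% of all genes in DIEC and 15.5% in F/F colon. Rescaling by TMM factors, which balance the libraries on their common genes, raised the median of all genes by 0.253 in DIEC and 0.102 in F/F colon. With it 25.1% of genes were called higher and 26.3% lower in DIEC, and 22.8% higher and 22.5% lower in F/F colon. The members called higher were then 8 in DIEC and 9 in F/F colon. These are bulk tissues, in which fewer cells of a type and less RNA per cell cannot be told apart.

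**Figure D2:**
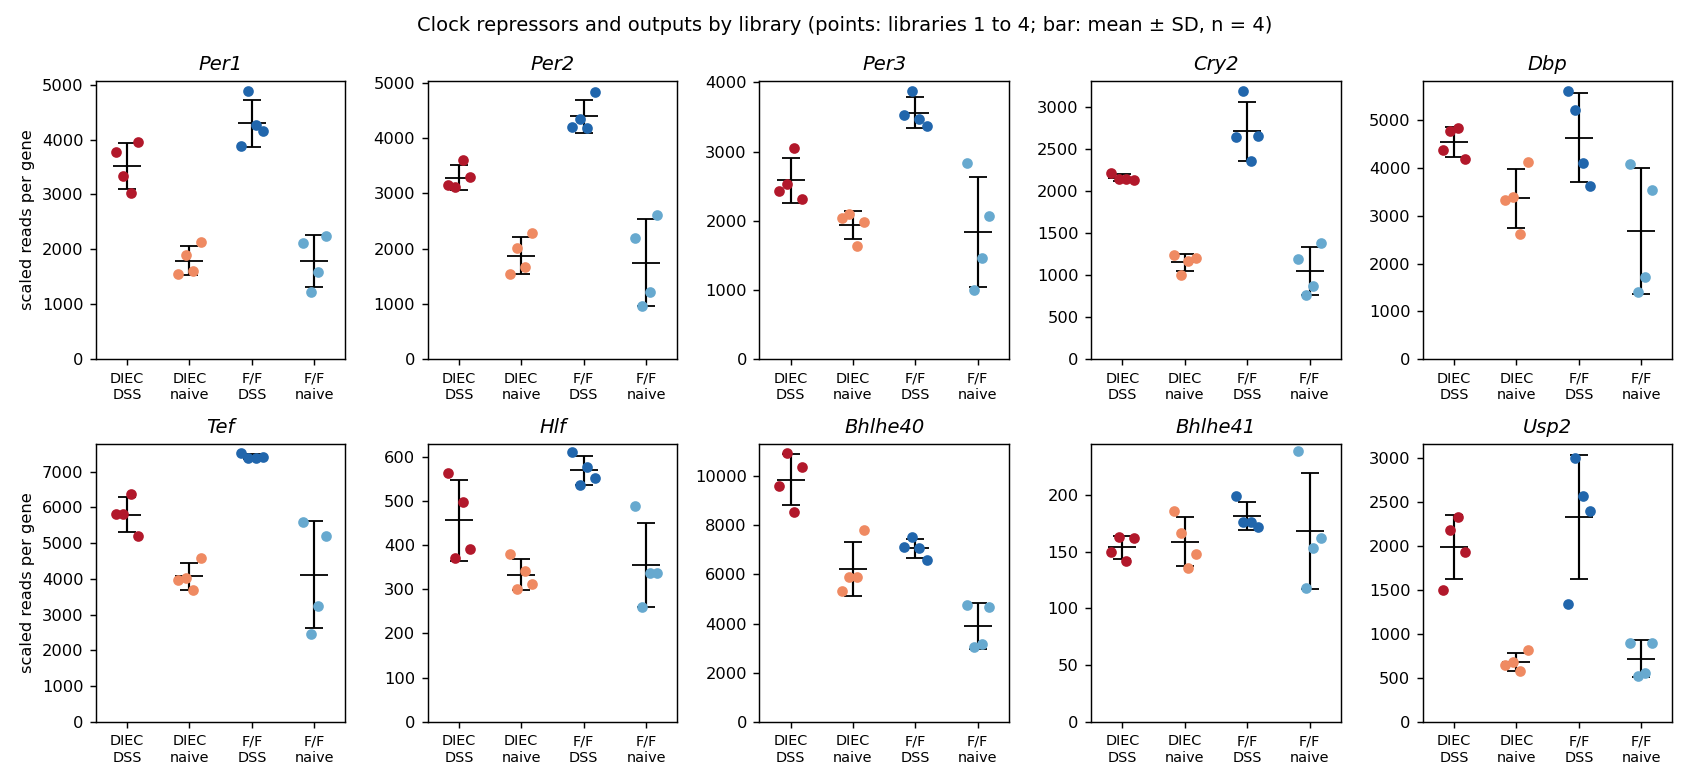
Scaled reads per gene (vertical axes, from 0) in DIEC DSS, DIEC naive, F/F DSS and F/F naive, with a point per library and the mean ± SD (n = 4). Every DSS library lies above every naive library of its genotype for 8 of 10 members in DIEC colon (not Hlf and Bhlhe41) and for 8 of 10 in F/F colon (not Dbp and Bhlhe41).

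Among the Period genes, Per1 (chr11:68912458-68923459, plus strand), which is readily induced by outside signals, had 3772.7, 3344.8, 3024.0 and 3948.2 scaled reads in the DIEC DSS libraries, against 1551.0, 1892.6, 1612.6 and 2126.7 in the DIEC naive libraries. In F/F colon it had 3877.8, 4885.2, 4270.5 and 4154.9 in DSS libraries, against 2113.4, 1217.4, 1588.4 and 2234.3 in naive libraries. Each DSS library was above each naive library of its genotype, and the lowest DSS value lay well over the highest naive one. Per1 rose by 0.98 ± 0.16 in DIEC colon (1.97-fold, adjusted p = 9.9e-05) and by 1.30 ± 0.16 in F/F colon (2.46-fold, adjusted p = 1.5e-05).

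Per2 (chr1:93312559-93355905, minus strand), the core Period repressor, had 3146.4, 3108.6, 3597.3 and 3288.2 scaled reads in DIEC DSS, against 1532.6, 2004.5, 1669.8 and 2283.5 in DIEC naive. In F/F DSS it had 4202.2, 4340.1, 4188.1 and 4838.7, against 2188.6, 951.4, 1220.2 and 2612.6 in F/F naive. The groups were apart in both genotypes, and the F/F naive libraries were spread over a 2.75-fold range while the F/F DSS libraries spanned 1.16-fold. It rose by 0.83 ± 0.25 in DIEC colon (1.77-fold, adjusted p = 0.014) and by 1.45 ± 0.25 in F/F colon (2.73-fold, adjusted p = 0.00041).

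Per3 (chr4:150377764-150418774, minus strand), which is the weakest repressor of the family, had 2435.6, 2524.8, 3051.9 and 2314.9 scaled reads in DIEC DSS, against 2039.7, 2095.5, 1637.9 and 1983.6 in DIEC naive. The F/F DSS libraries had 3534.4, 3875.3, 3474.7 and 3368.4, against 2833.2, 999.6, 1462.1 and 2071.0 in F/F naive. Both pairs of groups were apart, in DIEC colon by a narrow gap. The difference in DIEC colon was 0.41 ± 0.23 (95% interval -0.09 to 0.91, adjusted p = 0.16), and Per3 rose by 1.06 ± 0.23 in F/F colon (2.08-fold, adjusted p = 0.0022). With TMM factors, edgeR and DESeq2 the DIEC difference was 0.67 to 0.68 and passed (adjusted p = 0.028, 0.023 and 0.0024), and it passed also without F/F naive 1 (0.0498) or F/F naive 2 (0.034), which took no part in the difference itself but entered the shared spread. With limma on the DIEC libraries alone Per3 was also called (adjusted p = 0.0046), in a fit that called 11.9% of genes higher and 39.5% lower. In the authors' deposited table the same change is 0.67 (adjusted p = 2.1e-05).

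Cry2 (chr2:92243804-92274226, minus strand), a cryptochrome that joins the Period proteins in repressing CLOCK and BMAL1, had 2213.6, 2142.4, 2137.5 and 2130.7 scaled reads in DIEC DSS, against 1237.8, 999.1, 1164.2 and 1197.6 in DIEC naive. The F/F DSS libraries stood at 2635.9, 3184.2, 2352.8 and 2652.3, against 1191.5, 765.4, 862.6 and 1380.7 in F/F naive. No DSS library overlapped a naive library of its genotype, and the DIEC DSS libraries lay within 1.04-fold of each other. Cry2 rose by 0.91 ± 0.14 in DIEC colon (1.88-fold, adjusted p = 4.3e-05) and by 1.40 ± 0.14 in F/F colon (2.63-fold, adjusted p = 2.1e-06). The antisense gene D930015M05Rik that overlaps Cry2 had at most 2.32 scaled reads in any library.

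The largest fold among the members, in both genotypes, was that of Usp2 (chr9:43893003-43903710, plus strand), the rhythmic ubiquitin protease. It had 1491.4, 2174.8, 2325.5 and 1930.6 scaled reads in DIEC DSS, against 644.7, 679.7, 572.1 and 814.4 in DIEC naive. F/F DSS libraries had 1333.6, 2999.1, 2563.7 and 2396.5, against 893.9, 514.7, 555.8 and 897.0 in F/F naive. DSS libraries were all above naive ones, and DSS library 1 of each genotype was the lowest of its group. Usp2 rose by 1.54 ± 0.25 in DIEC colon (2.90-fold, adjusted p = 0.00016) and by 1.68 ± 0.25 in F/F colon (3.21-fold, adjusted p = 0.00013).

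Of the PAR bZIP activators, Tef (chr15:81641844-81657293, plus strand) had 5805.0, 5820.7, 6370.6 and 5189.8 scaled reads in DIEC DSS, against 3968.1, 4028.2, 3677.6 and 4594.4 in DIEC naive. For F/F DSS the values were 7528.0, 7388.2, 7378.4 and 7400.7, against 5586.7, 2464.8, 3241.6 and 5188.9 in F/F naive. The groups were apart in both genotypes, and the F/F DSS libraries lay within 1.02-fold of each other. Tef rose by 0.51 ± 0.19 in DIEC colon (adjusted p = 0.037) and by 0.93 ± 0.19 in F/F colon (adjusted p = 0.0012). The DIEC call ended without DIEC DSS 1, 2 or 3 or DIEC naive 1, 2 or 3 (adjusted p = 0.069 to 0.09), with a change of 0.47 to 0.51.

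Dbp (chr7:52960617-52965573, plus strand), a strongly rhythmic gene in many mouse tissues, had 4375.1, 4774.9, 4843.5 and 4196.9 scaled reads in DIEC DSS, against 3323.4, 3389.4, 2614.5 and 4124.0 in DIEC naive. Its F/F DSS values were 5610.2, 5212.4, 4101.3 and 3619.5, against 4077.4, 1404.4, 1722.9 and 3536.4 in F/F naive. The DIEC groups were just apart, and in F/F colon DSS library 4 lay below naive library 1. The difference in DIEC colon was 0.45 ± 0.30 (95% interval -0.19 to 1.09, adjusted p = 0.23), and Dbp rose by 0.91 ± 0.30 in F/F colon (adjusted p = 0.023). The F/F call ended without F/F DSS 1 (adjusted p = 0.065), F/F DSS 2 (0.059), F/F naive 2 (0.064) or F/F naive 3 (0.071), and when only F/F libraries were used (0.1). DESeq2 called Dbp in DIEC colon (0.70, adjusted p = 0.027), as did limma on the DIEC libraries alone (adjusted p = 0.0059). Sphk2 overlaps the end of Dbp on the other strand, and without strand its reads there cannot be told apart from those of Dbp; it had 2134 to 2321 scaled reads in DIEC DSS, 2170 to 2355 in DIEC naive, 2524 to 3068 in F/F DSS and 2262 to 2711 in F/F naive.

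Hlf (chr11:90197849-90252231, minus strand), the scarcest of the 3 activators, had 563.8, 371.1, 496.6 and 390.8 scaled reads in DIEC DSS, against 379.7, 300.3, 340.6 and 311.6 in DIEC naive. In F/F DSS it had 611.4, 536.7, 576.0 and 551.6, against 487.4, 259.3, 337.5 and 336.9 in F/F naive. DIEC DSS 2 lay below DIEC naive 1, and the F/F groups were apart. It rose by 0.44 ± 0.16 in DIEC colon (adjusted p = 0.026) and by 0.71 ± 0.16 in F/F colon (adjusted p = 0.0011). Without DIEC DSS 1, DIEC DSS 3, DIEC naive 2 or DIEC naive 4 the DIEC call ended (adjusted p = 0.099, 0.068, 0.073 and 0.062).

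The E-box repressors Bhlhe40 and Bhlhe41 differed from each other. Bhlhe40 (chr6:108610623-108616919, plus strand) had 9613.1, 10926.4, 8539.4 and 10375.9 scaled reads in DIEC DSS, against 5310.3, 5907.2, 5877.0 and 7807.0 in DIEC naive. In F/F DSS it had 7114.0, 7515.8, 7083.3 and 6576.2, against 4742.2, 3040.2, 3172.0 and 4678.4 in F/F naive. All DSS libraries lay above the naive libraries of their genotype. Bhlhe40 rose by 0.67 ± 0.14 in DIEC colon (1.59-fold, adjusted p = 0.00076) and by 0.89 ± 0.14 in F/F colon (1.85-fold, adjusted p = 0.00011). Bhlhe41 (chr6:145806763-145813940, minus strand) had 150.1, 162.8, 141.6 and 161.7 scaled reads in DIEC DSS, against 185.8, 166.5, 135.7 and 148.0 in DIEC naive. In F/F DSS it had 199.4, 176.6, 176.4 and 172.1, against 239.2, 117.6, 153.4 and 162.2 in F/F naive. Its groups overlapped in both genotypes, and neither difference was called (-0.04, 95% interval -0.38 to 0.31, in DIEC colon and 0.15, -0.19 to 0.50, in F/F colon; the DIEC value was 0.21 after TMM rescaling). Per kb, Bhlhe40 exceeded Bhlhe41 by 118.79- to 132.19-fold in DIEC DSS, 56.28- to 103.89-fold in DIEC naive, 70.25- to 83.82-fold in F/F DSS and 39.05- to 56.79-fold in F/F naive.

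**Figure D3:**
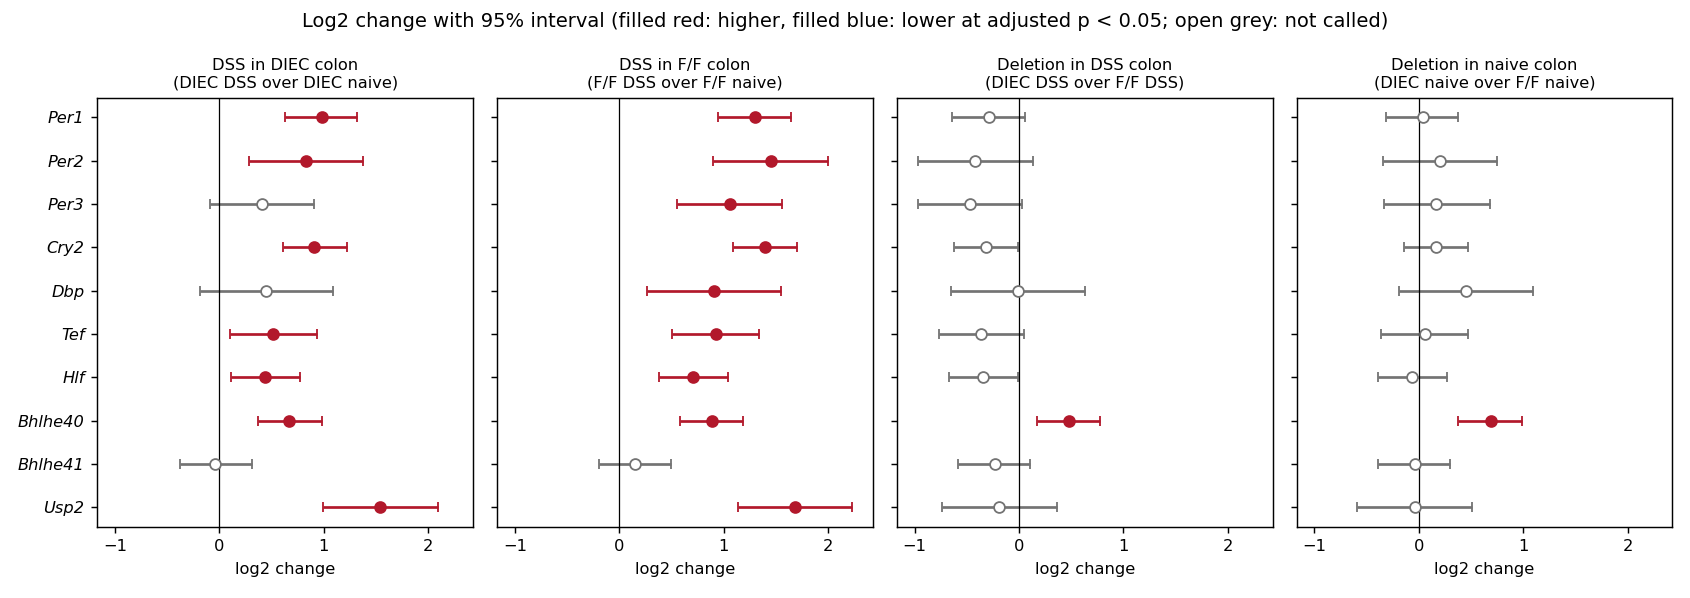
Log2 change of each member with its 95% interval (horizontal axes) in DIEC DSS over DIEC naive, F/F DSS over F/F naive, DIEC DSS over F/F DSS and DIEC naive over F/F naive. Filled red points were called higher: 7 and 9 members with DSS and Bhlhe40 alone with the deletion, while open grey points were not called.

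With the deletion, Bhlhe40 was the 1 member called, and it was called in both conditions. In DSS colon Bhlhe40 alone rose (0.48 ± 0.14, 1.39-fold, adjusted p = 0.02), with every DIEC DSS library, at 8539.4 to 10926.4 scaled reads, above every F/F DSS library, at 6576.2 to 7515.8, as for 3.10% of all genes. In naive colon Bhlhe40 alone rose (0.69 ± 0.14, 1.61-fold, adjusted p = 0.015), with DIEC naive libraries at 5310.3 to 7807.0 and F/F naive libraries at 3040.2 to 4742.2, again without overlap, as for 4.33% of all genes. Among all genes 3.28% were called higher and 26.0% lower with the deletion in DSS colon, and 1.41% higher and 0.821% lower in naive colon. After TMM rescaling the shares in DSS colon were 6.68% and 7.38%, as the median of all genes rose by 0.189 there, and Bhlhe40 then differed by 0.67 ± 0.14 in DSS colon (adjusted p = 0.004) and 0.73 ± 0.14 in naive colon (0.008). The DSS call ended without DIEC DSS 2 (adjusted p = 0.058), DIEC DSS 4 (0.0503) or F/F DSS 4 (0.059), and the naive call without F/F naive 3 (0.06) or with naive libraries alone (0.077). Both calls held with edgeR (adjusted p = 0.0036 and 0.0087) and DESeq2 (4.9e-05 and 5.6e-05), and in the authors' deposited table Bhlhe40 is higher by 0.67 and 0.71 (adjusted p = 1.1e-06 and 0.0032).

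For 5 other members, Per2, Per3, Cry2, Tef and Bhlhe41, every DIEC DSS library lay below every F/F DSS library, where 21.9% of all genes did so. Per2 ran from 3108.6 to 3597.3 scaled reads in DIEC DSS, against 4188.1 to 4838.7 in F/F DSS, and Tef from 5189.8 to 6370.6, against 7378.4 to 7528.0. None of these differences passed over all 16 libraries: Per2 differed by -0.42 ± 0.25 (adjusted p = 0.24), Per3 by -0.47 ± 0.23 (0.15), Cry2 by -0.32 ± 0.14 (0.11), Tef by -0.36 ± 0.19 (0.18) and Bhlhe41 by -0.23 ± 0.16 (0.31). With limma on the DSS libraries alone, whose spread was smaller, Per2, Per3, Cry2 and Tef were called lower (adjusted p = 0.0043, 0.0052, 0.024 and 0.0065), where that fit called 20.8% of all genes lower and 2.85% higher. The median of the members was -0.30, beside -0.20 for all genes. After TMM rescaling the groups of all 5 overlapped, and their differences were -0.28 to -0.04. Proliferation markers were called lower for 9 of 10 in the same comparison (3 after TMM rescaling), with a median of -1.19, and their part in these values was not tested. The remaining 4 were not called either, at -0.29 for Per1, -0.34 for Hlf, -0.19 for Usp2 and -0.01 for Dbp, of which Usp2 came to 0.0013 and Dbp to 0.18 after TMM rescaling.

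In naive colon the other 9 members overlapped between genotypes and were not called (adjusted p = 0.54 to 0.96). Their differences ran from -0.06 for Hlf to 0.45 for Dbp, and the intervals were wide: -0.19 to 1.09 for Dbp and -0.34 to 0.75 for Per2. Those for Per1, at -0.31 to 0.38, and Cry2, at -0.14 to 0.47, were narrower. These values rest on the scattered F/F naive libraries: without F/F naive 2 the differences of Per1, Per2, Per3 and Tef were -0.14, -0.05, -0.08 and -0.17, against 0.04, 0.20, 0.17 and 0.06 with it. Leaving out another library raised them at most to 0.16, 0.44, 0.42 and 0.23, in the same order.

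Whether the response to DSS itself differed between genotypes was tested as an interaction, DIEC minus F/F. No member was called (0 of 10 with limma, edgeR and DESeq2), where 0.290% of genes were called higher and 3.34% lower, and 1 member, Cry2, had an unadjusted p under 0.05. The point estimates ran from -0.64 ± 0.33 for Per3 to -0.15 ± 0.36 for Usp2, with -0.49 ± 0.20 for Cry2 (adjusted p = 0.17) and -0.62 ± 0.36 for Per2 (adjusted p = 0.33). Their median was -0.37, beside -0.16 over all genes, and TMM rescaling moved the median of all genes by 0.152. The intervals were wide, at -1.40 to 0.15 for Per2 and -0.92 to 0.63 for Usp2. The DSS comparisons and the deletion comparisons share libraries, so their values are set side by side here and not correlated.

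Other core clock genes moved in both directions with DSS. Of 12 such genes, 5 rose and 2 fell in DIEC colon (6 and 1 after TMM rescaling), and 3 rose and 1 fell in F/F colon. The shares over all genes were 12.3% higher and 40.0% lower in DIEC, and 16.3% and 28.5% in F/F colon. Clock, the activator whose product starts the loop, had 1911.3 to 2437.7 scaled reads in DIEC DSS, against 4061.3 to 4505.0 in DIEC naive, and 2309.6 to 2830.2 in F/F DSS, against 3974.4 to 4523.7 in F/F naive. DSS and naive libraries were far apart in both genotypes, and Clock fell by 0.93 ± 0.08 in DIEC colon (adjusted p = 4.2e-08) and by 0.74 ± 0.08 in F/F colon (2.4e-06). The repressors Cry1 and Ciart rose in both, Cry1 by 0.79 ± 0.20 in DIEC (adjusted p = 0.0033) and 0.77 ± 0.20 in F/F colon (0.0051), and Ciart by 1.17 ± 0.38 (0.018) and 1.75 ± 0.38 (0.002). Nfil3, a repressor that competes with the PAR bZIP activators for D-boxes, rose by 1.57 ± 0.41 in DIEC colon (adjusted p = 0.0054), and its difference in F/F colon, -0.15, was not called.

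With the deletion 4 of the 12 rose in DSS colon (5 after TMM rescaling), 2 rose in naive colon and none fell. Over all genes 3.28% were called higher in DSS colon (6.68% after TMM rescaling) and 1.41% in naive colon. Arntl, the gene of BMAL1, had 1573.7, 1858.0, 1978.5 and 1647.3 scaled reads in DIEC DSS, against 597.3, 905.9, 704.5 and 728.5 in F/F DSS. In naive colon it had 1680.6, 1639.7, 1924.0 and 1684.7 in DIEC libraries, against 605.3, 1152.9, 1030.2 and 859.8 in F/F libraries. The genotypes were apart in both, and Arntl rose by 1.27 ± 0.16 in DSS colon (adjusted p = 6.9e-05) and by 0.96 ± 0.16 in naive colon (0.0034). Npas2 rose by 1.37 ± 0.18 (adjusted p = 8.6e-05) and 1.10 ± 0.18 (0.0026). Nfil3 had 405.4, 634.5, 293.6 and 700.3 in DIEC DSS, against 40.3, 136.8, 107.2 and 60.9 in F/F DSS, a rise of 2.61 ± 0.41 (adjusted p = 0.00056), and Nr1d1 rose by 0.89 ± 0.23 in DSS colon (0.012). The Nr1d1 libraries overlapped, at 8241.4 to 12181.0 in DIEC DSS and 3623.3 to 9418.6 in F/F DSS. Per1, Per2, Per3 and Cry2, the repressors that the loop's activators drive, were not called with the deletion in either condition over all 16 libraries; on the DSS libraries alone Per2, Per3 and Cry2 were called lower, as given above.

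**Figure D4:**
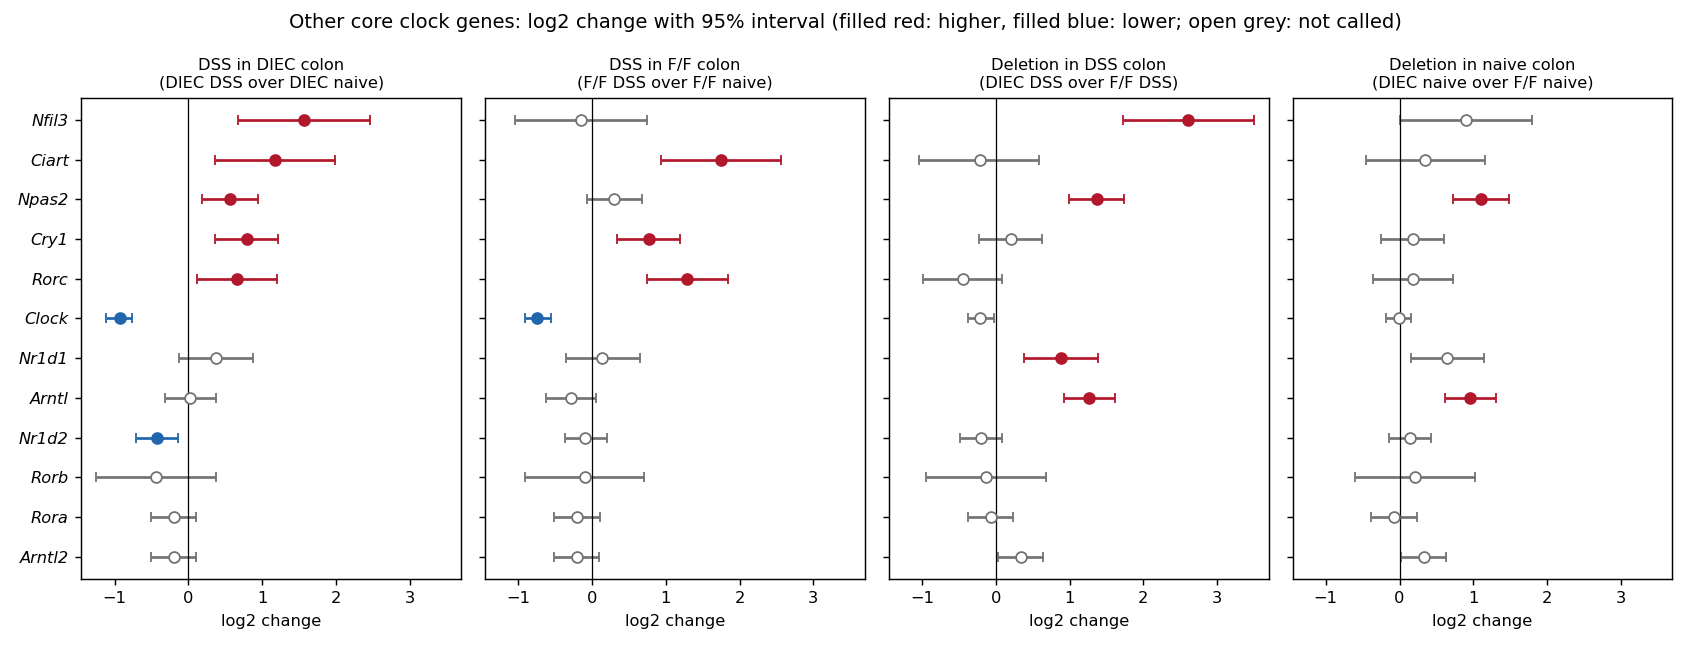
Log2 change of 12 other core clock genes with the 95% interval (horizontal axes) in DIEC DSS over DIEC naive, F/F DSS over F/F naive, DIEC DSS over F/F DSS and DIEC naive over F/F naive. Clock is a filled blue point, called lower, in both DSS panels, and Arntl and Npas2 are filled red, called higher, in both deletion panels.

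Of 9 further clock-controlled outputs, 4 rose and 1 fell with DSS in DIEC colon, and 5 rose in F/F colon. Among all genes 12.3% were called higher and 40.0% lower in DIEC, and 16.3% and 28.5% in F/F colon. Por, the electron donor of cytochromes P450, rose by 0.76 in DIEC (adjusted p = 1.6e-06) and 0.94 in F/F colon (9.4e-07), and Alas1, the first enzyme of haem synthesis, by 0.49 (0.0017) and 0.42 (0.0066). The interaction was called for Pdxk, pyridoxal kinase (-0.76, adjusted p = 0.031), which rose by 0.51 with DSS in DIEC and 1.26 in F/F colon, and for Wee1, a kinase that holds back mitosis (-0.89, adjusted p = 0.024), which fell by 0.64 in DIEC colon and was not called in F/F colon. After TMM rescaling neither interaction was called (-0.60 for Pdxk and -0.74 for Wee1, adjusted p = 0.11 each). Of a list of 9 genes, 8 kinases and ligases that mark clock proteins and Timeless, 2 rose and 3 fell in DIEC colon, and 4 rose and 1 fell in F/F colon (4 and 1 in both after TMM rescaling). Csnk1d, a casein kinase that phosphorylates Period proteins, rose by 0.24 in DIEC (adjusted p = 0.024) and 0.46 in F/F colon (0.00028). Timeless, which is neither and has a role in DNA replication, fell by 1.69 (3.5e-05) and 1.34 (0.00052).

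Genes that glucocorticoids induce were set beside the members since Period genes answer the same hormone. Of 11 such genes 6 rose and 1 fell with DSS in DIEC colon (8 and none after TMM rescaling), and 6 rose and none fell in F/F colon, with medians of 0.50 and 0.38. Tsc22d3, called higher in both genotypes, is counted both here and among the clock-controlled outputs above. Over all genes 12.3% were called higher in DIEC (25.1% after TMM rescaling) and 16.3% in F/F colon, with medians of -0.24 and -0.11. Fkbp5, a cochaperone of the glucocorticoid receptor, rose by 0.87 in DIEC (adjusted p = 0.007) and 0.78 in F/F colon (0.016), and Sgk1, a kinase that acts on sodium channels, by 0.50 (0.0065) and 0.75 (0.00034). With the deletion 4 rose in DSS colon and 4 in naive colon, among them Sgk1 by 1.43 (adjusted p = 4e-06) and 1.68 (2.6e-06). The shares of all genes called higher with the deletion were 3.28% in DSS colon and 1.41% in naive colon. Whether glucocorticoids had a part in the members' changes was not tested.

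Cell type markers moved beside the members with DSS. For these counts the shares over all genes were 12.3% higher and 40.0% lower in DIEC, and 16.3% and 28.5% in F/F colon. After TMM rescaling they were 25.1% and 26.3% in DIEC, and 22.8% and 22.5% in F/F colon. Smooth muscle markers rose for 11 of 11 in DIEC and 9 of 11 in F/F colon (11 and 10 after TMM rescaling), with sums of 257814 to 319304 in DIEC DSS, 158950 to 187298 in DIEC naive, 260536 to 326109 in F/F DSS and 189724 to 251170 in F/F naive. Proliferation markers fell for 10 of 10 in each, with sums of 2010 to 3047 in DIEC DSS, 15279 to 19982 in DIEC naive, 2896 to 7739 in F/F DSS and 16147 to 27476 in F/F naive. Enteric neuron and glia markers rose for 8 of 13 in DIEC (4326 to 5911, against 3313 to 4333) and 5 of 13 in F/F colon (4598 to 5325, against 4049 to 4897). With TMM factors 9 rose in DIEC and 7 in F/F colon. Macrophage markers fell for 7 of 10 in DIEC (4471 to 7542, against 7955 to 10306) and 8 of 10 in F/F colon (6687 to 6888, against 9624 to 13436). After TMM rescaling 5 fell in DIEC and 7 in F/F colon. Epithelial markers rose for 4 and fell for 1 of 10 in DIEC (8 and 1 after TMM rescaling) and rose for 3 and fell for 1 of 10 in F/F colon (5 and none). Adipocyte markers fell for 5 of 8 in DIEC (3 fell and 1 rose after TMM rescaling), and fell for 7 and rose for 1 of 8 in F/F colon, with medians of -2.13 and -3.10. Their sums ran from 4859 to 7379 in DIEC DSS, 5648 to 8158 in DIEC naive, 7448 to 14417 in F/F DSS and 6781 to 9798 in F/F naive. Pck1, the marker that rose in F/F colon, had the highest mean of the 8 in each group, at 4595, 3698, 9264 and 4898 in the same order. Of 7 B and plasma cell markers the same 3 fell in both genotypes, the plasma cell genes Jchain (-2.22 in DIEC and -2.46 in F/F colon, adjusted p = 2e-06 and 3e-06), Mzb1 (-1.90 and -2.03, adjusted p = 0.0048 and 0.0042) and Tnfrsf17, whose mean was 8.58 in DIEC DSS, against 78.5 in DIEC naive, and 21.7 in F/F DSS, against 100.8 in F/F naive. Pancreatic acinar markers fell for 7 of 8 tested in each genotype, fibroblast markers for 1 of 6 in DIEC (none after TMM rescaling) and 2 of 6 in F/F colon and endothelial markers for 2 of 5 in each (none after TMM rescaling). The fibroblast and endothelial counts were close to or below the shares of all genes called lower, and they are not read as a result about these markers. With limma none of 6 T and NK cell markers was called (1 higher in DIEC colon after TMM rescaling). With the deletion in naive colon none of the epithelial or smooth muscle markers was called. In DSS colon 1 epithelial marker rose and 1 fell (3 and 1 after TMM rescaling). Of all genes 3.28% were called higher there and 26.0% lower (6.68% and 7.38% after TMM rescaling). There no smooth muscle marker was called (1 higher after TMM rescaling) and 9 of 10 proliferation markers fell (3 after TMM rescaling). The part of these shifts in the members' changes was not tested.

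Among themselves the members fell into closer and looser company over the 16 libraries, measured as the root-mean-square difference of centred log2 values. Per3 and Tef were the closest (0.12), followed by Per1 and Cry2 (0.17) and Per1 and Per2 (0.20), while Usp2 and Bhlhe41 were the farthest apart (0.85). Of 13251 genes with a mean of at least 50 searched, the nonmembers nearest to Per1 were B3gnt7 and Cys1 (0.20 each) and Gnl1 and Mpp2 (0.21 each). B3gnt7, a glycosyltransferase gene, had means of 41641 in DIEC DSS, 19460 in DIEC naive, 48200 in F/F DSS and 19302 in F/F naive. Nearest to Dbp were Selenbp1 and Smim24 (0.25 each), Slc46a1 (0.27) and Pcsk4 (0.28), and nearest to Usp2 were Abi3 (0.32), Zfp385b (0.34), Osgin1 and Ciart (0.35 each), Ciart being the sole core clock gene among these 12. The 16 libraries fall into 4 groups, so the measure is a description of pattern and not a test.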

How the data were processed

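Colon RNA of 3 pooled mice per library was sequenced in 16 libraries, 4 per group. The submitters' processing notes name bcl2fastq, STAR 2.2.0c, HOMER 4.9 and the build mm10. HOMER summed reads over exons of mm9 gene models, 1 model per gene and with a strand option, per the file headers; the labels name a TruSeq RNA kit, which in its standard form does not mark strand. The deposited signal values are these reads divided by 1 factor per library (1 read was worth 0.765 to 1.33, and 100% of values lay within 0.01 of a whole number of reads). The authors' deposited log2 fold changes and p-values, for the second group named over the first, were used only where named.

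Groups were compared with limma 3.58.1 (trend and robust settings) in R 4.3.3 on log2(value + 1), for the 18267 genes that reached 1 in 4 or more libraries. The 16 libraries were fitted together, each group with its own mean, and each adjusted p comes from that model unless another tool is named. This scale understates changes of low genes. The alternatives were a pseudocount of 5, no filter, a value minimum of 10, TMM factors, edgeR 4.0.16 and DESeq2 1.42.0 on recovered reads, only the groups compared, a block for the replicate number, and each library left out. The members and lists were chosen with earlier results of these data known. Named were all members, up to 6 called genes per list and comparison with the smallest adjusted p, the 4 genes nearest in pattern to Per1, Dbp and Usp2, and Ncor1. Lists are described by counts, without set tests. The confidence level of intervals was 95%.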

Additional observations from a re-analysis of the deposited data

Results flagged for a closer look

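In 3 of 40 sets of 4 libraries (10 genes in 4 groups) a library stood far from the other 3 by Dixon's criterion at the 95% level, which chance alone gives in about 1 of 20 sets. All 3 were the highest library of a tight group. Cry2 was at 2213.6 scaled reads in DIEC DSS 1, against 2130.7 to 2142.4 in the other DIEC DSS libraries. Tef was at 7528.0 in F/F DSS 1, against 7378.4 to 7400.7 in the other F/F DSS libraries. Bhlhe41 was at 199.4 in F/F DSS 1, against 172.1 to 176.6 in the other F/F DSS libraries. In each of the 3 sets the counting error on the log2 scale (0.031, 0.016 and 0.102) was above the SD of the 4 libraries (0.026, 0.014 and 0.095).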

How the results depend on the processing

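Of 1190 values of single members under the alternatives, 1122 kept their direction and their side of the threshold, 20 lost a call, 18 gained 1 and 30 changed sign, none of the last a called value. With DSS the count of called members stayed at 5 to 9 in DIEC and 8 to 9 in F/F colon. With the deletion in naive colon it was 1, and 0 with only the groups compared or, at the lowest, with a library left out (0 to 1). With the deletion in DSS colon it was 1, and 5 with only the groups compared, 2 with the replicate block and 0 to 3 with a library left out. All genes called with the deletion in naive colon numbered 408, and 826 with DESeq2 and 233 to 470 with a library left out. With the deletion in DSS colon they numbered 5346, and 2568 with TMM factors, 2647 with edgeR and 3071 with DESeq2. For the interaction they numbered 664, and 117 with TMM factors, 126 with edgeR, 1247 with the replicate block and 144 (without DIEC naive 1) to 1662 (without F/F DSS 2) with a library left out. The cause was not tested.

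Sign changes under another scaling or tool were Bhlhe41 with DSS in DIEC colon (0.21 with TMM, 0.20 with edgeR, 0.21 with DESeq2), Dbp with the deletion in DSS colon (0.18, 0.17 and 0.18), Usp2 with the deletion in DSS colon (0.0013 with TMM) and Usp2 in the interaction (0.01 with TMM, 0.0022 with DESeq2). With a library left out, values that crossed 0 ran as follows. Bhlhe41 ran from -0.11 to 0.04 with DSS in DIEC colon, -0.0035 to 0.34 with DSS in F/F colon and -0.20 to 0.14 with the deletion in naive colon. With the deletion in naive colon, Per1 ran from -0.14 to 0.16, Per2 from -0.05 to 0.44, Per3 from -0.08 to 0.42, Tef from -0.17 to 0.23, Hlf from -0.20 to 0.10 and Usp2 from -0.18 to 0.08. Dbp ran from -0.12 to 0.09 with the deletion in DSS colon.

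The replicate numbers do not pair the libraries: 2 of 24 same-number pairs correlated above 0.1 (-0.148 to 0.232), and 5 of 16 libraries were closest to a library of their own number. With the replicate block Hlf was called lower with the deletion in DSS colon (-0.34, adjusted p = 0.019). Depth limits the scarce Bhlhe41 most, whose counting error was 0.102 to 0.121 on the log2 scale. The other limits are 4 pools per group, a single time point of DSS (day 3), no stated hour of sampling, whole tissue, and the scatter of F/F naive.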

Other observations

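Immediate-early and CREB-responsive genes, which switch on within minutes of a stimulus, also stood higher with DSS: 7 of 11 rose and none fell in DIEC colon, and 6 rose and none fell in F/F colon, with medians of 0.86 and 0.79. Among all genes 12.3% were called higher in DIEC and 16.3% in F/F colon, with medians of -0.24 and -0.11. Fos rose by 1.06 in DIEC (adjusted p = 0.0011) and 0.91 in F/F colon (0.0044), and Fosb by 1.88 (0.00031) and 1.00 (0.028). With the deletion 3 rose and 1 fell in DSS colon (4 and none after TMM rescaling), and none was called in naive colon. Over all genes 3.28% were called higher and 26.0% lower in DSS colon (6.68% and 7.38% after TMM rescaling). Summed over the 11 genes they stood at 25313 to 49088 in DIEC DSS, 16201 to 18902 in DIEC naive, 19526 to 31614 in F/F DSS and 12752 to 15576 in F/F naive.

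Of 11 hypoxia-induced genes, the class to which Bhlhe40 also belongs in several cell types, 6 rose and 2 fell with DSS in DIEC colon (7 and 0 after TMM rescaling), and 3 rose in F/F colon (5 after TMM rescaling). The shares of all genes called higher were 12.3% in DIEC (25.1% after TMM rescaling) and 16.3% in F/F colon (22.8%). Slc2a1, a glucose transporter, rose by 0.74 in DIEC (adjusted p = 7.8e-07) and 0.56 in F/F colon (4.3e-05). With the deletion 3 rose and 2 fell in DSS colon (4 and 1 after TMM rescaling), and 1 rose and 2 fell in naive colon (1 and 1). Among all genes 3.28% were called higher and 26.0% lower in DSS colon, and 1.41% and 0.821% in naive colon. The interaction was called for Pfkfb3, an activator of glycolysis (0.72, adjusted p = 0.032). A link of the hypoxia-induced genes to the changes of Bhlhe40 was not tested.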
